A study of Mus musculus with 18 samples.

Results

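A set of 40 genes that dividing cells need for DNA synthesis and mitosis was examined in naive and tolerized CD4+ T cells. The genes were taken by name from a fixed list, and all 40 were found by Ensembl identifier among the 37991 genes counted in each of the 18 libraries. All 40 were abundant enough to be tested, with mean normalized counts over the libraries from 18 for Gins2 to 2628 for Pcna. The lowest count of any of them in any library was 5 and the highest was 4092.

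The cells came from Tg4-H2u mice, a strain with a transgenic T cell receptor for a myelin basic protein peptide, and were enriched for CD4+ cells from the spleen of males and females from 6 weeks of age. Tolerized mice (T) had received 7 subcutaneous injections of the 4Y peptide in escalating amounts, and control mice (N) had received PBS on the same schedule. In T0 and N0 the last injection, 2 h before the cells were taken, was PBS, and in TAg and NAg it was the peptide antigen (Ag). In TPI and NPI the cells were treated in culture for 2 h with PMA and a calcium ionophore (PI), which bypass the receptor. Each of the 6 groups has 3 biological replicates, and libraries are named here by group and replicate number, for example N0 2. The enrichment yields a mixed population of CD4+ cells with some other spleen cells, and whether each replicate was 1 mouse or a pool is not given in the sources used here.

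Cells enter the division cycle when E2F transcription factors, freed from the retinoblastoma protein, switch on the genes for DNA replication. The MCM helicase is loaded onto origins by Cdc6 and Cdt1, is activated with Cdc45 and the GINS complex, and is followed by polymerases clamped to DNA by PCNA. Genes for mitosis are switched on later, by the MuvB complex with B-Myb and FoxM1, and act in chromosome condensation, spindle assembly, the checkpoint and cytokinesis. Most CD4+ T cells in the spleen of an unchallenged mouse are in a resting state, and transcripts of the mitotic genes are low in resting cells.

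Total counts ran from 10758571 to 24119489 per library and were highest after PI, and all T cell markers tested (11 of 11) were detected in every library. Reads of Y-linked genes and Xist showed that the sex of the mice was not balanced. N0 and NAg came from females, NPI and TPI from males, and T0 and TAg from both sexes (T0 1, T0 2 and TAg 3 from males). PI and sex therefore cannot be told apart in naive cells. No group was cultured without PI, so PI and culture cannot be told apart in either cell state. Changes after PI below are thus those of PI together with culture, and in naive cells also with sex. Normalized counts below are counts scaled by the effective size of each library (TMM method), set so that these sizes average to 1 as a geometric mean. Means are given ± SD with n = 3, and log2 fold changes ± their standard error, from edgeR's quasi-likelihood fit of all libraries. Adjusted p-values are Benjamini-Hochberg values over the 17240 genes tested, and a gene is called higher or lower at an adjusted p under 0.05. The p-values set each difference against the spread between replicates, which the fit pools over the 6 groups and shares in part between genes.

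As a group, the proliferation genes were most abundant in resting tolerized cells and in tolerized cells after Ag. The mean log2 normalized count over the 40 genes was 7.36, 7.17 and 7.31 in the T0 libraries and 6.88, 6.14 and 6.56 in N0. It was 6.99, 6.87 and 7.45 in TAg and 6.60, 6.28 and 6.43 in NAg. Tolerized libraries thus lay above all naive libraries of the same condition, both at rest and after Ag. After PI the values were 6.57, 6.70 and 6.58 in NPI and 6.74, 6.62 and 6.80 in TPI, and these groups overlapped. T0 had the highest group mean for 22 of the 40 genes, TAg for 6, TPI for 5, NPI for 4, NAg for 2 and N0 for 1 (Mcm7). These means are given as a description. In a bulk sample, fewer cells of a type and less RNA per cell cannot be told apart.

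**Figure D1:**
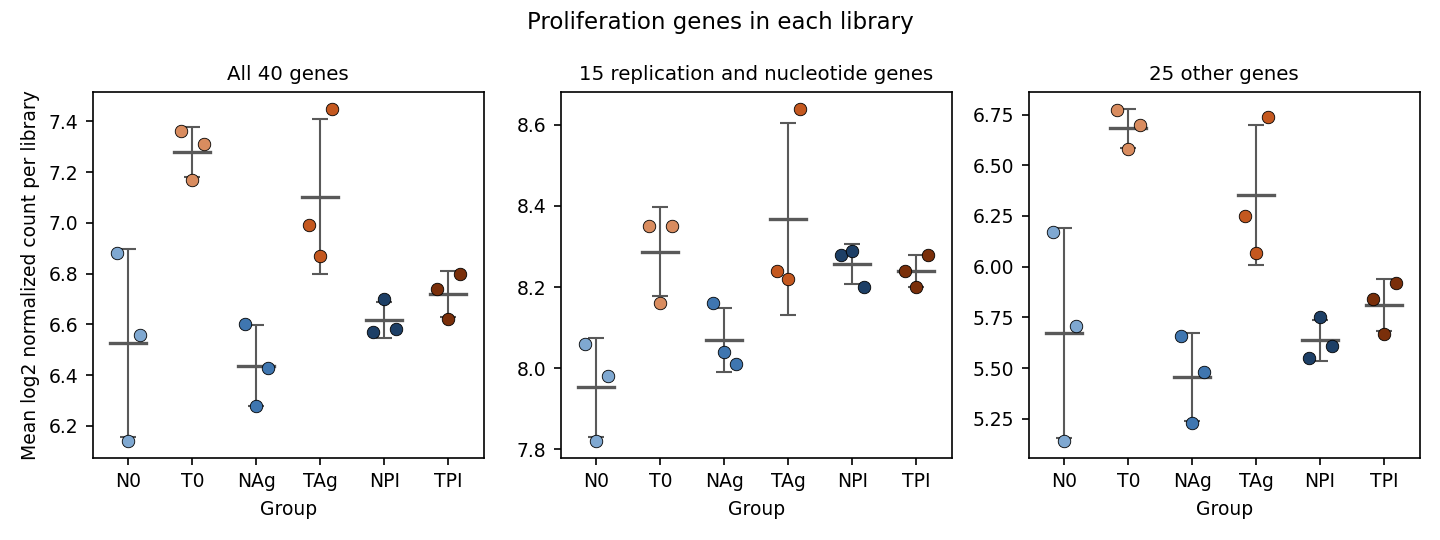
Mean log2 normalized count in each library (points) for all 40 genes, for the 15 replication and nucleotide genes and for the 25 other genes, with the mean and SD of each group (bars, n = 3). The y axes start above 0 because the scale is log2. T0 and TAg lie highest for all 40 genes, and the 25 other genes show the wider gap between tolerized and naive cells at rest.

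Some libraries stood apart from the others of their group. TAg 3 was the highest TAg library for 36 of the 40 genes. N0 1 was the highest N0 library for 29 genes and N0 2 the lowest for 30. N0 therefore had the widest spread, with an SD of 0.371 on the log2 scale against 0.0985 in T0. Below, the libraries whose removal ended a call are named beside each test printed for a single gene.

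Summed markers of neutrophils and erythroid cells had higher means in tolerized than in naive cells, as the proliferation genes did at rest and after Ag. Other changes were shared in some comparisons and not in others. In TPI against T0, 22 of the 40 genes were lower, where 36.3% of all genes were. In that comparison 12 of 12 granule markers, 8 of 17 erythroid markers and 1 of 6 precursor markers were lower. Of 12 macrophage markers, 8 were lower and 1 higher in TAg than NAg, where 18.5% and 20.9% of all genes were. In NPI against N0, 8 of 12 granule markers were lower, where 32.7% of all genes were, and the median of the 40 genes was −0.06. The summed normalized count of 12 neutrophil granule markers was 85 to 179 in N0 and 1897 to 3231 in T0, 117 to 438 in NAg and 2227 to 4312 in TAg, and 4 to 8 in NPI and 80 to 166 in TPI. For 6 markers of neutrophil precursors, dividing cells of the myeloid lineage, the sum was 21 to 60 in N0 and 477 to 844 in T0, 29 to 55 in NAg and 424 to 587 in TAg, and 79 to 201 in NPI and 457 to 747 in TPI. The 17 erythroid markers found summed to 144 to 366 in N0, 515 to 3174 in T0, 234 to 648 in NAg, 371 to 2581 in TAg, 77 to 129 in NPI and 327 to 542 in TPI. Of these lists, 11 granule markers, all 6 precursor markers and 8 erythroid markers were higher in T0 than N0, and Rhag and Rhd had no reads in N0. Granule markers Ngp, Ltf, Camp, Ly6g and Cebpe had no reads in NPI. Summed markers of T cells were 48678 to 51665 in N0 and 40563 to 46605 in T0, which did not overlap. They were 49151 to 53045 in NAg, 47262 to 49683 in TAg, 76438 to 83606 in NPI and 89509 to 94186 in TPI. Of 11 T cell markers 4 were lower and 1 higher in T0 than N0, where 12.0% and 8.42% of all genes were. Over all libraries, summed markers of B cells ranged from 522 to 4029 and of macrophages from 319 to 2167. Those of germinal centre B and plasma cells ranged from 282 to 856, of megakaryocytes from 72 to 883, and of CD8 T and NK cells from 188 to 1065. T0 2 had the lowest erythroid and granule sums of T0 (515 and 1897), both above those of every N0 library. It also had the lowest mean level of the 40 genes in T0 (7.17), again above that of every N0 library. TAg 3, the library with the highest level of the 40 genes, had the highest erythroid and granule sums of its group. The precursor and erythroid sums of TPI and T0 overlapped, and the granule sums of TPI lay below those of T0. The mean level of the 40 genes was 6.72 ± 0.0917 in TPI and 7.28 ± 0.0985 in T0. The part of these other cells in the results below was not tested beyond the model with their scores as covariates.

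**Figure D2:**
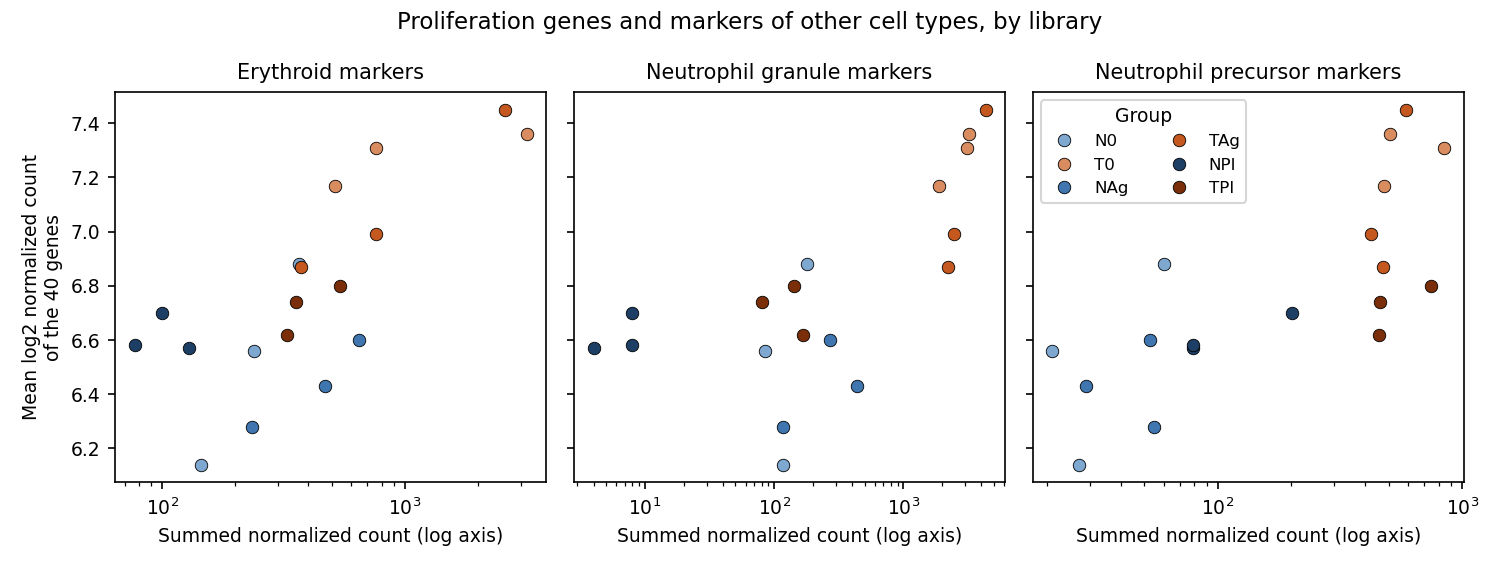
Mean log2 normalized count of the 40 genes (y axis) against the summed normalized count of markers of erythroid cells, neutrophil granules and neutrophil precursors (x axes, log scale), with 1 point for each of the 18 libraries, coloured by group. T0 and TAg libraries have granule sums of 1897 to 4312, above all others, and TPI libraries have precursor sums of 457 to 747 at a level of 6.62 to 6.80.

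In resting cells, 22 of the 40 proliferation genes were higher in tolerized than in naive cells and 1 was lower, where 8.42% of all genes tested were higher and 12.0% lower. Their median log2 fold change was 0.75, against −0.081 for all genes. The difference lay mostly outside the replication genes. Of 15 genes for licensing, the fork and nucleotide supply, 4 were higher, with a median of 0.21, and of the 25 others 18 were higher and 1 lower, with a median of 0.92. By role, both chromosome and proliferation markers, all 3 transcription factors, 5 of 7 cyclins and mitotic kinases, 3 of 4 checkpoint and anaphase genes and 5 of 9 centromere, spindle and cytokinesis genes were higher. With the study's further limits of a 2-fold change and a mean above 50, 11 genes were higher and 0 lower, where 2.61% and 0.644% of all genes were. Of the 22 higher calls, 13 held whichever library was left out, and those of Aurka, Bub1b, Cdc20, Cenpe, E2f1, Mcm3, Nusap1, Rrm2 and Tpx2 were lost in at least 1 fit. Without N0 2 the count was 13, where 952 of all genes tested were higher. With sex as a covariate 12 genes were higher and 0 lower, where 922 and 912 of all genes were. With scores of erythroid and myeloid markers as covariates, 0 were called in either direction, the median standard error grew from 0.24 to 0.64 and the median log2 fold change was −0.06. In that model 4 genes of all those tested were higher and 10 lower, and the estimates of 9 of the 22 genes (Rrm2, Aurkb, Tk1, Nusap1, Tpx2, Ccna2, Bub1b, Ccnb1 and Cenpe) lay between −1.53 and −0.03.

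After Ag, 24 of the 40 genes were higher in TAg than NAg and 2, Cdt1 and Pcna, were lower, where 20.9% of all genes were higher and 18.5% lower. The median log2 fold change was 0.68, against 0.011 for all genes. Replication and nucleotide genes numbered 5 of 15 among the higher and both of the lower, with a median of 0.20, and the other genes 19 of 25, with a median of 0.99. Under the limits on fold change and mean count 12 were higher and 0 lower, where 3.61% and 2.05% of all genes were. Calls of Bub1b, Cdc20, Cdc45, Cenpe, Cenpf, Kif11, Kif20a, Mki67, Nusap1, Rrm2 and Tpx2 were lost without at least 1 library. The count was 13 without TAg 3 and 15 without NAg 2, where 3216 and 3018 of all genes were higher. TAg 3 was the only library of TAg and NAg from males. With sex as a covariate the median was 0.61, and 5 calls were lost and 1 gained. With the marker scores 2 genes were higher and 0 lower, where 1298 and 1126 of all 17240 genes were. The median in that model was 0.23, with a median standard error of 0.41 in place of 0.26.

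**Figure D3:**
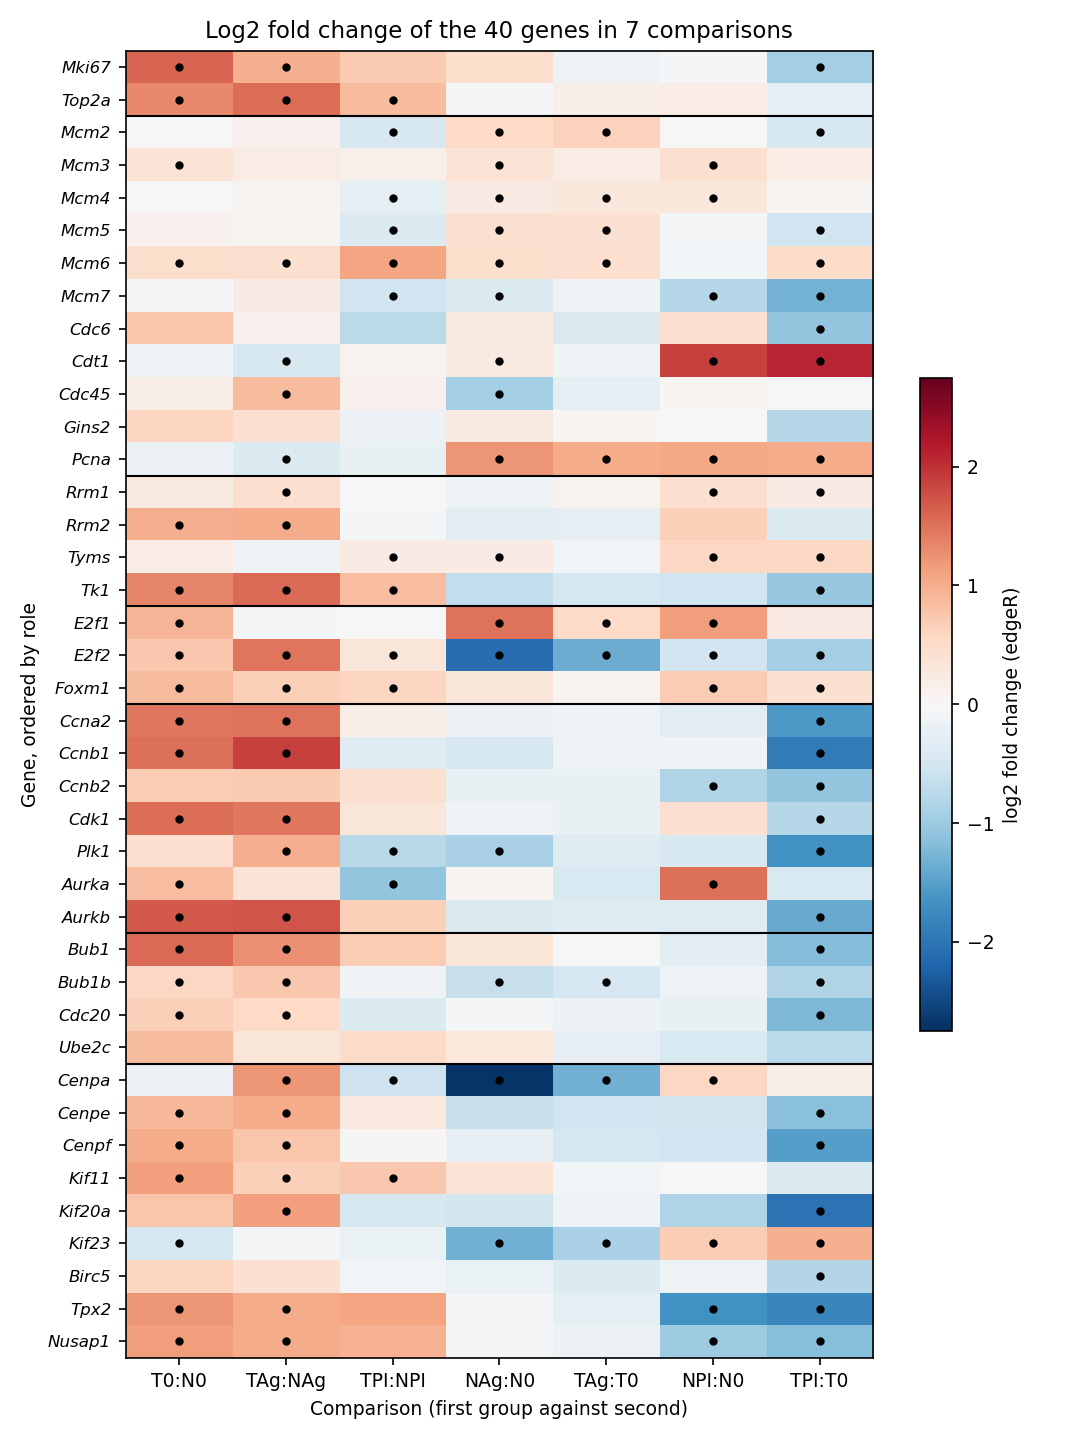
Log2 fold changes of the 40 genes (rows, ordered by role from chromosome and proliferation markers at the top to centromere, spindle and cytokinesis genes at the bottom) in 7 comparisons (columns), with red for higher and blue for lower in the first group and a black dot for an adjusted p under 0.05. The first 2 columns are mostly red (22 and 24 genes higher), and the last column is mostly blue (22 genes lower).

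After PI the gap between the cell states was not seen across the set. In TPI against NPI 7 genes were higher and 7 lower, where 18.2% of all genes were higher and 19.7% lower. The log2 fold changes of the 40 had a median of 0.07, against −0.038 for all genes. Mcm2, Mcm4, Mcm5, Mcm7, Plk1, Aurka and Cenpa were lower in TPI, and Top2a, Mcm6, Tyms, Tk1, E2f2, Foxm1 and Kif11 were higher. Of the higher genes only Mcm6 was called whichever library was left out. Without TPI 3 the count was 2, where 2836 of all genes were higher. Under the limits 1 was higher and 1 lower, where 3.38% and 2.22% of all genes were. Calls of Mcm4 and Plk1 among the lower genes were lost without at least 1 library. With the marker scores 2 were higher and 3 lower, where 1134 and 754 of all 17240 genes were.

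Ag raised several MCM genes, Pcna and E2f1 within 2 h in both cell states and lowered E2f2, Bub1b, Cenpa and Kif23. In naive cells 9 of the 40 were higher in NAg than N0 and 7 lower, with a median log2 fold change of −0.05, where 32.1% of all genes were higher and 33.4% lower. Of the 9 higher genes, 8 were replication or nucleotide genes (Mcm2, Mcm3, Mcm4, Mcm5, Mcm6, Cdt1, Pcna and Tyms) and the other was E2f1. Lower were Mcm7, Cdc45, E2f2, Plk1, Bub1b, Cenpa and Kif23. In tolerized cells 6 were higher in TAg than T0 (Mcm2, Mcm4, Mcm5, Mcm6, Pcna and E2f1) and 4 lower (E2f2, Bub1b, Cenpa and Kif23), with a median of −0.15, where 29.9% of all genes were higher and 29.8% lower. The share of the 40 genes that changed was thus below that of all genes in both cell states. Under the limits 2 were higher and 3 lower in NAg against N0, where 14.2% and 16.2% of all genes were, and 1 was higher and 2 lower in TAg against T0, where 12.1% and 11.3% were. Calls of Mcm4, Cdt1, Tyms and Bub1b in NAg against N0 and of E2f1 and Bub1b in TAg against T0 were lost without at least 1 library. Leaving out N0 2 gave 10 lower genes in NAg against N0, where 5787 of all genes were lower. Leaving out TAg 3 gave 9 lower in TAg against T0, where 4917 of all genes were. With the marker scores 13 were lower in NAg against N0, where 5403 of all 17240 genes were.

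After PI most of the mitotic genes were lower in tolerized cells than at rest. In TPI against T0, 22 of the 40 genes were lower and 7 higher, where 36.3% of all genes were lower and 32.0% higher. The median of their log2 fold changes was −0.78, against −0.102 for all genes. Of the 25 genes outside replication and nucleotide supply, 17 were lower and 2 higher (Foxm1 and Kif23), with a median of −0.94. Of the replication and nucleotide genes 5 were lower (Mcm2, Mcm5, Mcm7, Cdc6 and Tk1) and 5 higher (Mcm6, Cdt1, Pcna, Rrm1 and Tyms). The call of Rrm1 (0.23 ± 0.10, adjusted p = 0.045, a call lost without TPI 1, TPI 2, TPI 3, T0 1 or T0 2 at an adjusted p of 0.052 to 0.388) was among those that depend on single libraries, as were those of Foxm1, Cdk1 and Mki67. In naive cells 11 were higher in NPI than N0 and 5 lower, with a median of −0.06, where 28.6% of all genes were higher and 32.7% lower. Higher in NPI were Mcm3, Mcm4, Cdt1, Pcna, Rrm1, Tyms, E2f1, Foxm1, Aurka, Cenpa and Kif23, and lower were Mcm7, E2f2, Ccnb2, Tpx2 and Nusap1. Leaving out any 1 library gave 20 to 22 lower genes in TPI against T0. The marker scores gave 5, where 2753 of all 17240 genes were lower. In that model the median was 0.07, with a median standard error of 0.64 in place of 0.23. Of the granule markers 12 of 12 and of the erythroid markers 8 of 17 were also lower in TPI than T0, while 1 of 6 precursor markers was. Under the limits 2 were higher and 13 lower in TPI against T0, where 13.3% and 13.7% of all genes were, and 4 were higher and 0 lower in NPI against N0, where 10.1% and 10.3% were. In NPI against N0 calls of Ccnb2 and Nusap1 were lost without at least 1 library. The lower genes numbered 8 without N0 2 and 3 without NPI 1, NPI 3 or N0 1. Of all genes, 5607 were lower without N0 2, 5334 without NPI 1, 5293 without NPI 3 and 5671 without N0 1.

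The difference between the responses of tolerized and naive cells was tested directly, as TAg:T0 minus NAg:N0 and as TPI:T0 minus NPI:N0. For Ag, 2 genes were higher (E2f2 and Cenpa) and 1 lower (E2f1), where 14.6% of all genes were higher and 7.09% lower. For PI, 10 were lower (Mcm2, Mcm5, Mcm7, Cdc6, E2f1, Ccnb1, Plk1, Aurka, Cdc20 and Cenpf) and 1 higher (Mcm6), where 7.52% of all genes were lower and 12.7% higher, and the median of the 40 genes was −0.49. Under the limits 1 was higher and 0 lower for Ag, where 3.05% and 2.23% of all genes were, and 0 were higher and 5 lower for PI, where 1.75% and 1.47% were. Calls of Mcm2, Mcm5, Mcm7, Plk1, Aurka and Mcm6 held whichever library was left out. The count of lower genes for PI was 17 without N0 1, 6 without N0 2 or NPI 1, 5 with sex as a covariate and 6 with the marker scores. Of all genes, 1115 were lower without N0 1, 1050 without N0 2 and 947 without NPI 1. With sex 1166 of all genes were lower, and with the marker scores 982.

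**Figure D4:**
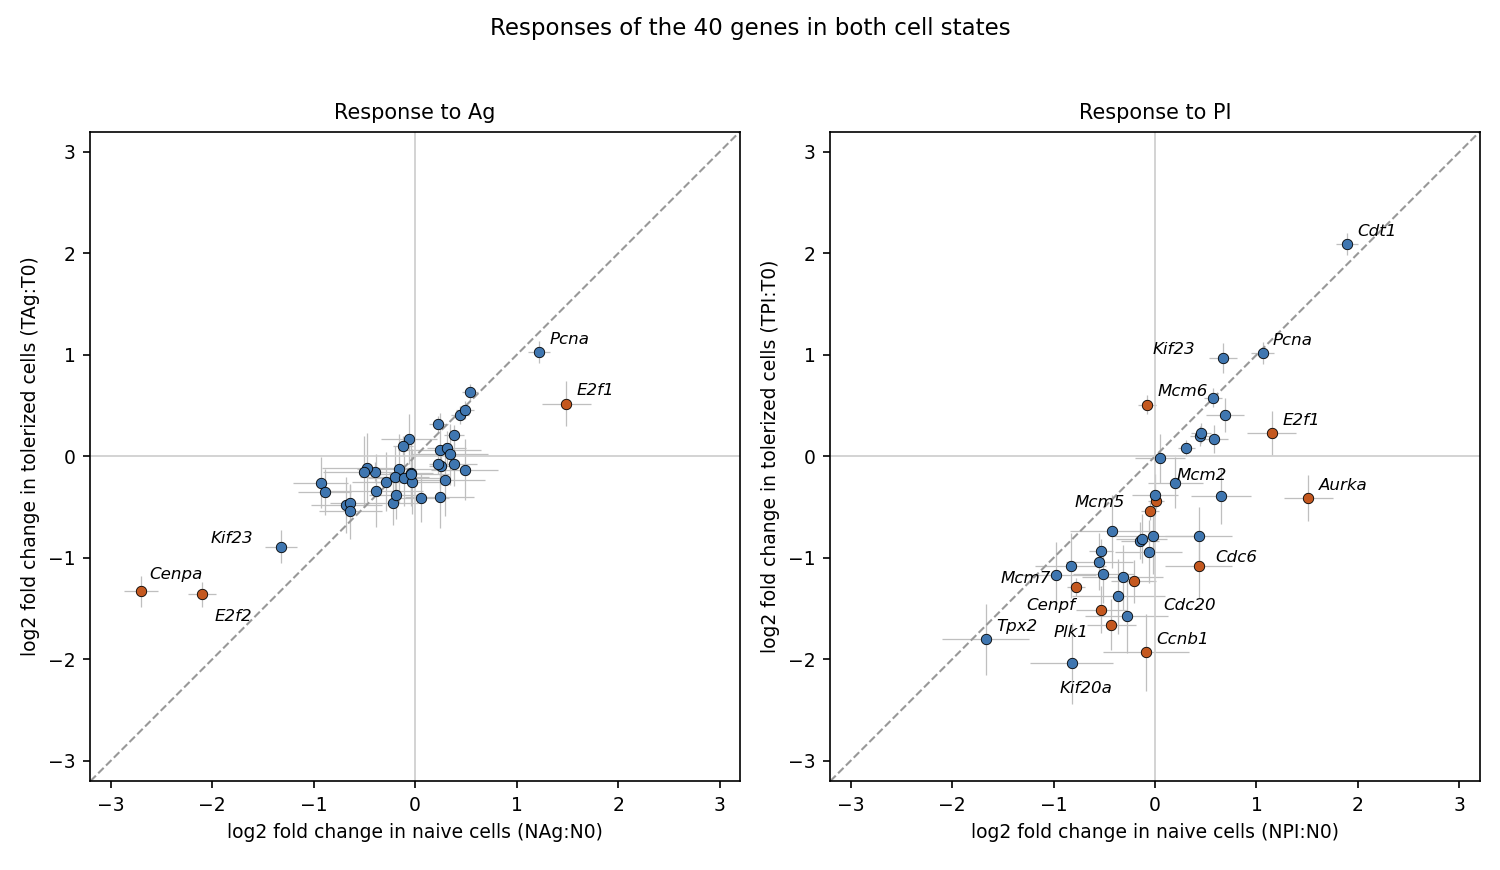
Log2 fold change in tolerized cells (y axis) against that in naive cells (x axis) for the 40 genes after Ag (left) and after PI (right), with bars of 1 standard error and the line of equal response (dashed). Orange points are genes whose responses differed between the cell states, 3 after Ag and 11 after PI. After PI most genes lie below the line, and Cdt1, Pcna and Kif23 lie close to it at the upper right.

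Mki67, the gene for the proliferation antigen Ki-67 that coats mitotic chromosomes, lies on chromosome 7 at 142881471 to 142908062 (build NCBIM37, as all gene positions here). Its normalized counts were 527, 215 and 267 in N0 and 1170.2, 922 and 957 in T0. In NAg they were 536, 376 and 508 and in TAg 852, 706 and 1227. Every tolerized library at rest and after Ag was above every naive library of the same condition. The difference was 1.59 ± 0.32, adjusted p = 0.00389 in T0 against N0. In TAg against NAg it was 0.97 ± 0.32, adjusted p = 0.0275, a call lost without TAg 3, NAg 2 or NAg 3 at an adjusted p of 0.0581 to 0.123. After PI the counts were 248, 438 and 285 in NPI and 525, 456 and 603 in TPI. The PI groups did not overlap, but the difference did not pass the test (0.72 ± 0.32, adjusted p = 0.106). TPI was lower than T0 (−0.94 ± 0.31, adjusted p = 0.0162, a call lost without TPI 1 or TPI 2 at an adjusted p of 0.0502 to 0.0565).

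Top2a, which encodes the topoisomerase that untangles replicated chromosomes, had counts of 446, 150.3 and 259.8 in N0 and 706, 681 and 751 in T0, and N0 1 was the nearest to T0. After Ag they were 291, 253 and 280.4 in NAg and 748, 702 and 948 in TAg. These groups lay far apart (1.32 ± 0.26, adjusted p = 0.00328 at rest, and 1.54 ± 0.27, adjusted p = 0.000447 after Ag). After PI the counts were 285, 333 and 364 in NPI and 606, 556 and 621 in TPI, with no overlap (0.86 ± 0.26, adjusted p = 0.0181, a call lost without TPI 3 or NPI 1 at an adjusted p of 0.0501 to 0.0692). Unlike most mitotic genes it was not called lower in TPI than T0 (−0.26 ± 0.25, adjusted p = 0.372).

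**Figure D5:**
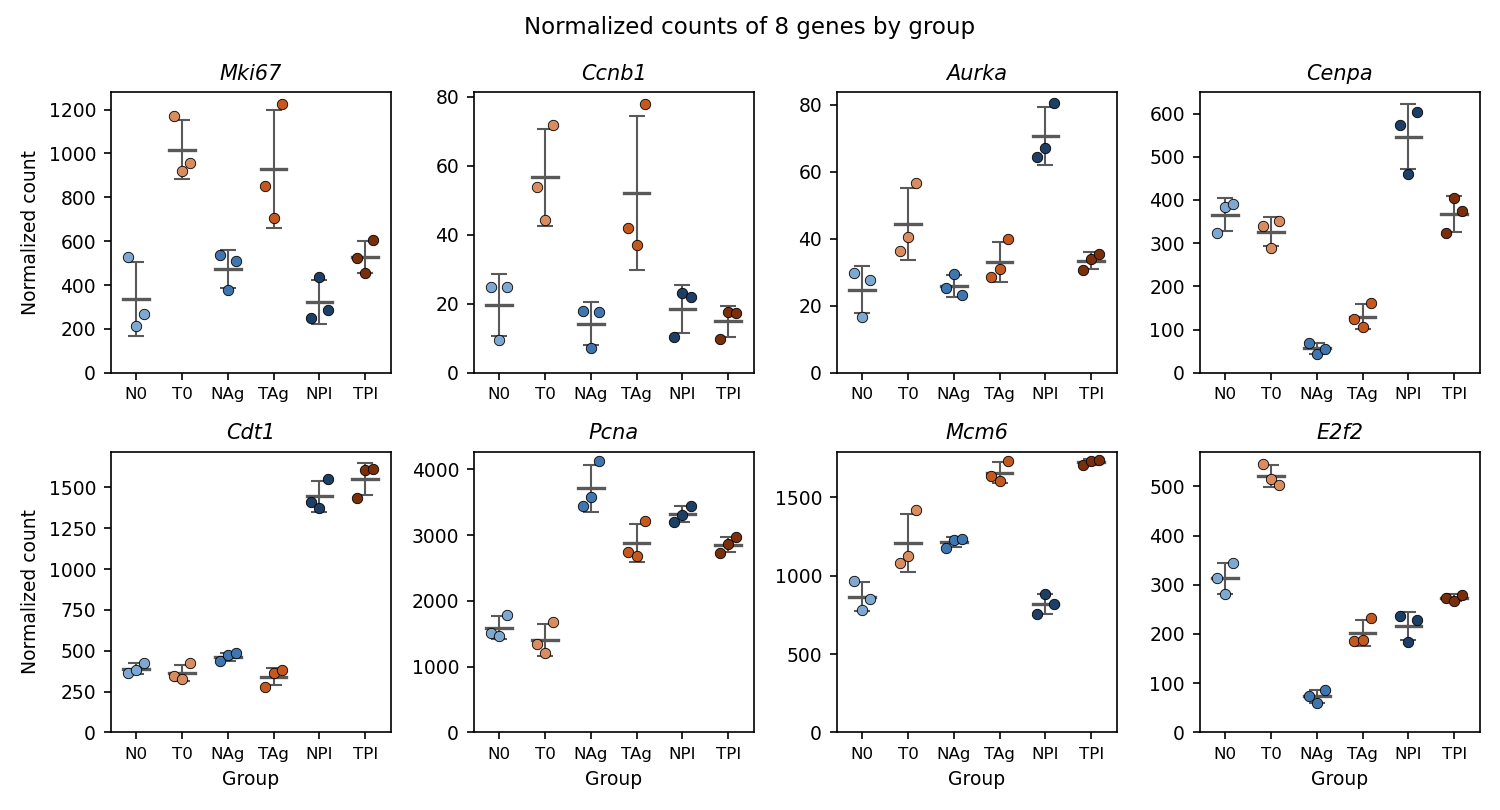
Normalized counts of 8 genes in each library (points) with the mean and SD of each group (bars, n = 3), on linear axes that start at 0. Mki67 and Ccnb1 are highest in T0 and TAg, Aurka and Cenpa in NPI, Cdt1 in NPI and TPI, Pcna after both stimuli, Mcm6 in TAg and TPI, and E2f2 in T0.

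Promoters of the 40 genes were read for the letters of 3 elements that are known from cell cycle genes. They are the E2F site (searched as TTCCCGC, as TTCGCGC, as TTGGCGC and as TTGCCGC), the CHR element of the MuvB complex (TTTGAA or TTCGAA) and the CCAAT box (CCAAT), on both strands. RefSeq promoters of build GRCm38.p6, from 250 bases before to 50 after the start, were at hand for 33 of the 40 genes, as 35 promoters. The E2F letters stood in 13 of the 35 promoters (37.1%), against 9.57% of all 32851 promoters. The CHR letters stood in 18 (51.4%), against 19.2%, and CCAAT in 28, against 37.4%. By role, E2F letters were in 7 of 10 promoters of licensing and fork genes and in 0 of 7 of centromere, spindle and cytokinesis genes. The CHR letters were in 3 of 10 and 4 of 7 of these, in 4 of 5 of cyclins and mitotic kinases, and in 4 of 4 of checkpoint and anaphase genes. Base composition was not matched, and a match is only a description of the letters.

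Promoters of 6 of the genes described below are shown, since they differ in which of these letters they hold. Capitals mark the matches to the 3 elements, and overlapping matches run together. Mcm6 lies at chr1:128359656-128359955 (minus strand), Cdt1 at chr8:122567765-122568064 (plus strand), Plk1 at chr7:122159185-122159484 (plus strand), Pcna at chr2:132253131-132253430 (minus strand), Ccnb1 at chr13:100786437-100786736 (minus strand) and Cenpa at chr5:30666636-30666935 (plus strand), all in GRCm38.p6.
Mcm6: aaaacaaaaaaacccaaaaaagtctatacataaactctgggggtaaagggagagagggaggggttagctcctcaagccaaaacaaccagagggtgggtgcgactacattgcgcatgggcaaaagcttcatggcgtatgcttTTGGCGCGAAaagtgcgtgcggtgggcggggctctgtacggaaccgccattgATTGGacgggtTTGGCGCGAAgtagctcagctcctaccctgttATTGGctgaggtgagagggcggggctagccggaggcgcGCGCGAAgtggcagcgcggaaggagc
Cdt1: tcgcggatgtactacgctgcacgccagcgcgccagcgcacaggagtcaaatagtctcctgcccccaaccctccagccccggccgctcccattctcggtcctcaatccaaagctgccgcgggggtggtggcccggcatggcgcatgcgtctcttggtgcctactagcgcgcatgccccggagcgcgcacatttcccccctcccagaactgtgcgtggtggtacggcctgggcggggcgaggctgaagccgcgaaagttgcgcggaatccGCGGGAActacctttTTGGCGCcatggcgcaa
Pcna: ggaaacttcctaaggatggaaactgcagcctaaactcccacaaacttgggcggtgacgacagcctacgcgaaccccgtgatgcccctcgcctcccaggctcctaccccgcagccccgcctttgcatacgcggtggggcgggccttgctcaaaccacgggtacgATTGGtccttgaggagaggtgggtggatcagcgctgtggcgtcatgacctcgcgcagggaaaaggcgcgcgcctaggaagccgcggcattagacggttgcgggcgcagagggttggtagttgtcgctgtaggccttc
Ccnb1: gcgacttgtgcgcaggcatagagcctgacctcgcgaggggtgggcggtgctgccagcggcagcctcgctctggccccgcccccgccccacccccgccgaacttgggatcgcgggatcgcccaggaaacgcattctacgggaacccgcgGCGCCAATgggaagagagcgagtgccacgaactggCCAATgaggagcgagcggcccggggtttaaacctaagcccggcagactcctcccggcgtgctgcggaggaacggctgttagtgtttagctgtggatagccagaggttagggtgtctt
Plk1: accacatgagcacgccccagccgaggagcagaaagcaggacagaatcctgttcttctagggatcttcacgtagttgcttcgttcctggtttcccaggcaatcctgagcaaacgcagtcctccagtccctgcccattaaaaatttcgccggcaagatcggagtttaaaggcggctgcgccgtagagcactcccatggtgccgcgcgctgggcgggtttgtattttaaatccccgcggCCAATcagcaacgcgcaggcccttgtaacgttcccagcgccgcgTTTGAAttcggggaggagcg
Cenpa: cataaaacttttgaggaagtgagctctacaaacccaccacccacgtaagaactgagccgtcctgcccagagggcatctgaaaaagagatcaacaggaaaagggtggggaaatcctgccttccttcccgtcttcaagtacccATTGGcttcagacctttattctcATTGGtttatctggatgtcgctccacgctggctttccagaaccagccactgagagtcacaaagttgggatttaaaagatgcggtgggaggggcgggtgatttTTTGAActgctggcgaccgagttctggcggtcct

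Mcm6 holds 5 matches to the E2F letters, counted on both strands, of which 4 form 2 overlapping pairs. Cdt1 holds 2, both after the start, and neither CHR nor CCAAT letters. Plk1 and Cenpa each hold a CHR element within the 50 bases after the start and at least 1 CCAAT box before it. Pcna, a fork gene, holds no E2F letters and 1 CCAAT box, and Ccnb1, a mitotic gene, holds an E2F match that overlaps a CCAAT box and no CHR letters. The letters thus did not divide these 6 genes by role, and the values of each in every library follow below.

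Among the 11 genes of origin licensing and the replication fork, 2 were higher in T0 than N0 (Mcm3 and Mcm6), where 8.42% of all genes were. The median log2 fold change of the 11 was 0.11. The MCM genes, which encode the 6 subunits of the ring-shaped helicase, did not move as a unit. Per kilobase of exon, their mean normalized counts in N0 lay between 129 for Mcm5 and 303 for Mcm4. In TPI the range was wider, from 71.1 for Mcm7 to 396 for Mcm6. The exons of Mcm7 overlap those of 4 other genes, most of all Ap4m1 on the opposite strand over 321 bases. Whether the counting used strand is not given in the sources used here.

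Mcm6 was the one MCM gene higher in tolerized cells under every condition. Its counts were 966, 783 and 851 in N0 and 1083, 1124 and 1420.4 in T0. The Ag libraries had 1179, 1229 and 1237 in NAg and 1636, 1602 and 1732 in TAg. After PI they were 758, 881 and 819 in NPI and 1709, 1731 and 1742 in TPI. The groups did not overlap under any condition. The log2 fold change was 0.48 ± 0.09, adjusted p = 0.000542 at rest, 0.45 ± 0.09, adjusted p = 0.00032 after Ag and 1.08 ± 0.09, adjusted p = 2.06e-09 after PI. PI raised Mcm6 in tolerized cells (0.51 ± 0.09, adjusted p = 1.61e-05), the estimate in naive cells was −0.08 ± 0.09, and the difference in response was 0.60 ± 0.13, adjusted p = 0.00141.

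Mcm2, another subunit, rose after Ag in both states. Counts were 703, 650.4 and 644 in N0 and 889, 988 and 1023 in NAg. In T0 they were 681, 610.3 and 724 and in TAg 1013, 1006 and 1106. The Ag libraries lay above the resting ones without overlap (0.54 ± 0.08, adjusted p = 3.19e-06 in naive cells, and 0.63 ± 0.08, adjusted p = 3e-07 in tolerized cells). After PI the counts were 718, 600.4 and 690.1 in NPI and 487, 498 and 504 in TPI, and TPI was lower than T0 (−0.44 ± 0.08, adjusted p = 6.57e-05). Mcm5 and Mcm7 were also lower in TPI than T0, with log2 fold changes of −0.54 ± 0.09 and −1.29 ± 0.09. Mcm7 was lower in NPI than N0 as well (−0.78 ± 0.09, adjusted p = 5.55e-08).

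Pcna, the gene for the sliding clamp on chromosome 2 at 132074898 to 132079050, had the highest level of the 40 per kilobase of exon in N0 (662 normalized counts per kilobase). It rose about 2-fold after both stimuli and in both cell states. Counts were 1513, 1465 and 1790 in N0, 3443, 3576 and 4124 in NAg and 3203, 3299.9 and 3445 in NPI. In tolerized cells they were 1347, 1204 and 1675 in T0, 2747, 2686 and 3215 in TAg and 2732, 2869 and 2971 in TPI. All stimulated libraries were above all resting ones. The log2 fold change was 1.22 ± 0.11 after Ag and 1.06 ± 0.11 after PI in naive cells, and 1.03 ± 0.11 and 1.02 ± 0.11 in tolerized cells, with adjusted p-values from 8.52e-10 to 1.85e-08. After Ag, tolerized cells had less Pcna than naive cells (−0.37 ± 0.10, adjusted p = 0.00754, a call lost without NAg 3 at an adjusted p of 0.0534).

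Cdt1, the licensing factor that loads the MCM ring, stood farthest from the other genes after PI. Counts were 361, 380 and 426 in N0 and 1413, 1373 and 1552 in NPI. They were 343, 326 and 422 in T0 and 1438, 1608 and 1611 in TPI. The rise was about 4-fold in both cell states and far larger than the spread between replicates (1.89 ± 0.11, adjusted p = 1.54e-13 in naive cells, and 2.09 ± 0.11, adjusted p = 1.21e-14 in tolerized cells). A difference between the responses did not pass the test (0.20 ± 0.15, adjusted p = 0.385, 95% interval −0.09 to 0.49). After Ag the counts were 435, 471 and 484 in NAg and 279.6, 362 and 381 in TAg, lower in tolerized cells (−0.44 ± 0.11, adjusted p = 0.00252). Ag raised Cdt1 in naive cells by 0.25 ± 0.11, adjusted p = 0.0448, a call lost without NAg 2, NAg 3, N0 1, N0 2 or N0 3 at an adjusted p of 0.0571 to 0.299.

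Cdc6, its partner in loading the MCM ring, did not rise with Cdt1. Its counts were 84.0, 44.2 and 54.7 in T0 and 28.3, 27.4 and 30.5 in TPI, with no overlap (−1.08 ± 0.32, adjusted p = 0.00544). In N0 they were 40.6, 32.4 and 34.7 and in NPI 56.2, 55.0 and 34.8 (0.43 ± 0.33, adjusted p = 0.274), and the difference in response to PI was −1.5 ± 0.46, adjusted p = 0.0235, a call lost without TPI 1, T0 1, NPI 1, NPI 2, N0 2 or N0 3 at an adjusted p of 0.0538 to 0.0873. With Ag it had 55.1, 50.5 and 22.0 in NAg and 35.2, 32.2 and 69.7 in TAg, which overlapped. Cdc45, which joins the active helicase, had counts of 59.4, 39.7 and 35.7 in N0 and 22.8, 22.3 and 25.3 in NAg, which did not overlap (−0.93 ± 0.27, adjusted p = 0.00421). In TAg it had 44.0, 28.6 and 54.3, higher than in NAg (0.86 ± 0.28, adjusted p = 0.0162, a call lost without TAg 3 or NAg 2 at an adjusted p of 0.0508 to 0.112). The other groups had 55.7, 40.6 and 56.6 in T0, 49.9, 48.4 and 41.6 in NPI and 54.1, 37.3 and 57.4 in TPI, which all overlapped N0. Cdc45 overlaps Ufd1l on the opposite strand over 209 bases. Gins2, a subunit of the GINS complex, was not called in any of the 7 comparisons, at counts that were the lowest of the 40. Its exons overlap those of Gse1 on the opposite strand over 2758 bases.

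Of the 4 genes of nucleotide supply, Rrm2 and Tk1 were higher in T0 than N0, where 8.42% of all genes were, and Rrm1 and Tyms were not called. Tyms, the gene for thymidylate synthase, had the largest counts of them (not per length), with counts of 539, 611 and 515 in N0 and 788, 816 and 864 in NPI. In T0 it had 689, 648 and 589 and in TPI 986, 939.5 and 958. PI libraries were above resting ones in both states (0.57 ± 0.09, adjusted p = 4.5e-06 in naive cells, and 0.58 ± 0.09, adjusted p = 2.02e-06 in tolerized cells). After Ag the counts were 591, 735 and 621 in NAg and 619.8, 634 and 569.6 in TAg, which overlapped (−0.10 ± 0.09, adjusted p = 0.426). The small gap between TPI and NPI was 0.22 ± 0.09, adjusted p = 0.0418, a call lost without TPI 1, TPI 2, TPI 3, NPI 1 or NPI 2 at an adjusted p of 0.0632 to 0.124.

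Tk1, thymidine kinase of the salvage route, had counts of 42.6, 24.0 and 35.7 in N0 and 104, 94.5 and 62.3 in T0. After Ag it had 28.8, 15.3 and 19.8 in NAg and 49.5, 40.5 and 95.3 in TAg. Tolerized libraries were above naive ones without overlap (1.34 ± 0.30, adjusted p = 0.00231 at rest, and 1.55 ± 0.33, adjusted p = 0.000664 after Ag). After PI the counts were 17.7, 29.7 and 22.9 in NPI and 35.5, 48.3 and 43.6 in TPI (0.85 ± 0.32, adjusted p = 0.041, a call lost without TPI 2, TPI 3, NPI 1 or NPI 3 at an adjusted p of 0.0959 to 0.167). TPI was lower than T0 (−1.04 ± 0.28, adjusted p = 0.00258). Rrm2, the regulated subunit of ribonucleotide reductase, had a mean of 122 ± 12.6 in T0 and 60.8 ± 23.9 in N0 (1.0 ± 0.30, adjusted p = 0.0242, a call lost without T0 1, T0 2, N0 2 or N0 3 at an adjusted p of 0.052 to 0.112). For Rrm1, the partner subunit, these were 488 ± 67.9 and 411 ± 18, and Rrm1 rose after PI in naive cells (0.45 ± 0.10, adjusted p = 0.000399).

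The 3 transcription factors were all higher in T0 than N0, where 8.42% of all genes were. After Ag, E2f1 was higher and E2f2 lower, and Foxm1 was not called. E2f1, an activator of S-phase genes, had counts of 23.8, 15.7 and 29.8 in N0 and 53.9, 69.3 and 72.6 in NAg. In T0 it had 40.7, 52.1 and 39.3 and in TAg 65.0, 50.1 and 73.8. NAg lay wholly above N0, and TAg overlapped T0. The rise was 1.49 ± 0.24, adjusted p = 5.58e-06 in naive cells. In tolerized cells it was 0.52 ± 0.22, adjusted p = 0.0453, a call lost without TAg 1, TAg 3, T0 1 or T0 3 at an adjusted p of 0.103 to 0.187. The difference between them was −0.98 ± 0.32, adjusted p = 0.0328, a call lost without TAg 1, TAg 2, T0 2, NAg 2, NAg 3, N0 1 or N0 2 at an adjusted p of 0.0505 to 0.112. After PI, E2f1 counts were 51.0, 51.7 and 51.8 in NPI and 58.2, 41.7 and 54.5 in TPI, and the rise in naive cells was 1.15 ± 0.24, adjusted p = 0.00021. At rest the gap between the states was 0.93 ± 0.24, adjusted p = 0.00828, a call lost without T0 2 or N0 2 at an adjusted p of 0.0532 to 0.0645.

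E2f2, another activator of the family, had the highest level of the 3 per kilobase of exon in N0 (64.1, against 7.31 for E2f1 and 11.6 for Foxm1, normalized counts per kilobase). Its counts were 313, 282 and 344 in N0 and 74.3, 58.7 and 85.8 in NAg. They were 547, 516 and 504 in T0 and 186, 188 and 233 in TAg. Ag lowered E2f2 in both states, and naive cells were left with less (−2.10 ± 0.14, adjusted p = 9.65e-13 in naive cells, and −1.36 ± 0.12, adjusted p = 3.78e-10 in tolerized cells). The responses differed by 0.73 ± 0.18, adjusted p = 0.0049. After PI the counts were 236, 184 and 228 in NPI and 274, 267 and 280.2 in TPI. The gap between cell states was 0.74 ± 0.12 at rest and 1.47 ± 0.14 after Ag. After PI it was 0.34 ± 0.12, adjusted p = 0.0274, a call lost without TPI 3 or NPI 2 at an adjusted p of 0.0772 to 0.153. Foxm1, which with the MuvB complex drives mitotic genes, had means of 63.7 ± 17.2 in N0 and 117 ± 12.7 in T0 (0.88 ± 0.18, adjusted p = 0.00146). Its log2 fold change after Ag was 0.31 ± 0.19 in naive cells (adjusted p = 0.165) and 0.08 ± 0.17 in tolerized cells (adjusted p = 0.705). It was also higher in TPI than T0 (0.41 ± 0.17, adjusted p = 0.036, a call lost without TPI 2, TPI 3, T0 2 or T0 3 at an adjusted p of 0.0683 to 0.216), where most mitotic genes were lower.

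Of the 7 cyclins and mitotic kinases, 5 were higher in T0 than N0 (Ccna2, Ccnb1, Cdk1, Aurka and Aurkb), where 8.42% of all genes were. Lower in TPI than T0 were 6, all but Aurka, where 36.3% of all genes were. Of these, Cdk1 gave −0.78 ± 0.28, adjusted p = 0.0178, a call lost without TPI 2 or TPI 3 at an adjusted p of 0.0571 to 0.107. Ccna2, the gene for the cyclin of S phase and G2, had counts of 63.4, 20.9 and 38.7 in N0 and 149, 84.8 and 107 in T0. After Ag it had 40.8, 24.7 and 45.1 in NAg and 90.3, 58.4 and 164 in TAg, and after PI 29.1, 38.5 and 34.0 in NPI and 41.2, 34.0 and 38.5 in TPI. The gap between the cell states was present at rest and after Ag (1.46 ± 0.37, adjusted p = 0.0103, and 1.5 ± 0.39, adjusted p = 0.00524), and the PI groups overlapped. TPI lay wholly below T0 (−1.57 ± 0.37, adjusted p = 0.00114). Ccna2 overlaps Exosc9 on the opposite strand over 512 bases.

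Ccnb1, the main mitotic cyclin, had counts of 24.8, 9.40 and 24.8 in N0 and 54.0, 44.2 and 71.9 in T0. After Ag they were 18, 7.05 and 17.6 in NAg and 41.8, 37.0 and 77.9 in TAg, and after PI 10.4, 23.1 and 22.1 in NPI and 9.70, 17.6 and 17.4 in TPI. Only the resting and Ag groups of tolerized cells stood above the rest. Differences were 1.51 ± 0.38, adjusted p = 0.00631 at rest, 1.87 ± 0.41, adjusted p = 0.000882 after Ag and −1.93 ± 0.38, adjusted p = 0.000125 from T0 to TPI. The difference in response to PI was −1.84 ± 0.57, adjusted p = 0.0252, a call lost without TPI 1, T0 3, NPI 2, NPI 3 or N0 2 at an adjusted p of 0.0603 to 0.0789. Ccnb2, the other B-type cyclin, had counts of 39.6, 20.9 and 24.8 in N0 and 9.36, 19.8 and 18.7 in NPI (−0.83 ± 0.35, adjusted p = 0.0469, a call lost without NPI 1, NPI 3 or N0 1 at an adjusted p of 0.0541 to 0.228). In tolerized cells it had 53.1, 34.5 and 51.8 in T0 and 22.6, 14.3 and 27.6 in TPI (−1.08 ± 0.32, adjusted p = 0.00434). With Ag the counts were 33.6, 18.8 and 22.0 in NAg and 38.5, 28.6 and 53.3 in TAg. Cdk1, the kinase both cyclins activate, had a mean of 20.4 ± 8.23 in N0 and 59.7 ± 5.31 in T0 (1.54 ± 0.31, adjusted p = 0.000899).

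The 2 Aurora kinases, which act at the spindle poles (Aurka) and at centromeres (Aurkb), behaved differently after PI. Aurkb counts were 35.7, 6.26 and 10.9 in N0 and 67.2, 45.9 and 57.5 in T0. After Ag they were 16.8, 9.40 and 14.3 in NAg and 41.8, 28.6 and 63.5 in TAg. Tolerized cells were higher, from low counts and with N0 1 well above N0 2 and N0 3 (1.68 ± 0.39, adjusted p = 0.00418 at rest, and 1.73 ± 0.43, adjusted p = 0.0028 after Ag). With 1 library left out the estimate at rest ranged from 1.28 to 2.70, the latter without N0 1. After PI, Aurkb counts were 12.5, 15.4 and 13.6 in NPI and 25.1, 19.8 and 20.3 in TPI, and the log2 fold change from T0 to TPI was −1.38 ± 0.37, adjusted p = 0.00259. Aurka counts were 29.7, 16.7 and 27.8 in N0 and 64.5, 67.1 and 80.6 in NPI. In T0 they were 36.3, 40.6 and 56.6 and in TPI 30.7, 34.0 and 35.6. PI raised Aurka in naive cells, where the groups did not overlap, and not in tolerized cells, where TPI lay below T0. The log2 fold change was 1.51 ± 0.24, adjusted p = 5.69e-06 in naive cells and −0.41 ± 0.23 (adjusted p = 0.123) in tolerized cells, and the responses differed by −1.92 ± 0.33, adjusted p = 0.000164, the largest such difference of the 40 genes. TPI against NPI was −1.08 ± 0.23, adjusted p = 0.000443. With Ag the Aurka counts were 25.2, 29.4 and 23.1 in NAg and 28.6, 31.0 and 40 in TAg, which overlapped.

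Plk1, the polo-like kinase of mitotic entry and exit, had counts of 67.2, 58.3 and 70.0 in T0 and 18.6, 18.7 and 24.0 in TPI. In N0 they were 44.6, 43.9 and 53.5 and in NPI 41.6, 31.9 and 32.3. The fall was clear in tolerized cells (−1.66 ± 0.25, adjusted p = 1.95e-06), the estimate in naive cells was −0.43 ± 0.24 (adjusted p = 0.131), and the responses differed by −1.23 ± 0.34, adjusted p = 0.0125. Counts after PI were lower in tolerized than in naive cells (−0.77 ± 0.26, adjusted p = 0.0209, a call lost without TPI 1, TPI 2 or NPI 1 at an adjusted p of 0.0636 to 0.108), while after Ag, at 32.4, 24.7 and 19.8 in NAg and 39.6, 41.7 and 70.7 in TAg, they were higher (0.99 ± 0.26, adjusted p = 0.00326).

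Among the 4 genes of the spindle checkpoint and of ubiquitination at anaphase, Bub1, Bub1b and Cdc20 were higher in T0 than N0 and lower in TPI than T0. Ube2c was not called in any of the 7 comparisons. Of all genes, 8.42% were higher in T0 than N0 and 36.3% were lower in TPI than T0. Bub1b, which encodes the checkpoint protein BubR1, had counts of 79.2, 62.6 and 74.4 in N0 and 109, 108 and 106 in T0. After Ag they were 52.7, 49.3 and 37.4 in NAg and 71.6, 59.6 and 101 in TAg, and after PI 56.2, 64.9 and 73.0 in NPI and 57.4, 61.5 and 62.4 in TPI. T0 lay wholly above each of the other groups. Against N0 the log2 fold change was 0.57 ± 0.18, adjusted p = 0.0269, a call lost without T0 1, T0 2, N0 2 or N0 3 at an adjusted p of 0.0642 to 0.128. For TPI against T0 it was −0.83 ± 0.18, adjusted p = 0.000301. Ag lowered Bub1b in naive cells (−0.64 ± 0.20, adjusted p = 0.00703, a call lost without NAg 3 at an adjusted p of 0.0534). In tolerized cells the value was −0.46 ± 0.18, adjusted p = 0.0311, a call lost without TAg 1 or TAg 2 at an adjusted p of 0.105 to 0.179, and −0.71 without TAg 3. Bub1, the kinase of the same checkpoint, had counts of 23.8, 5.22 and 18.8 in N0 and 54.8, 49.5 and 38.4 in T0, at a depth where N0 2 rests on 5 reads (1.56 ± 0.34, adjusted p = 0.00197). With Ag it had 16.8, 17.6 and 26.4 in NAg and 42.9, 38.1 and 63.5 in TAg. After PI it had 10.4, 16.5 and 11.9 in NPI and 18.6, 19.8 and 24.0 in TPI, which lay below T0 (−1.19 ± 0.32, adjusted p = 0.00222). Cdc20, the activator of the anaphase-promoting complex, had a mean of 96.3 ± 13.8 in T0 and 40.9 ± 2.25 in TPI (−1.23 ± 0.21, adjusted p = 1.65e-05), and its responses to PI differed by −1.02 ± 0.30, adjusted p = 0.0183, a call lost without T0 3, NPI 1 or N0 3 at an adjusted p of 0.0521 to 0.0778. Ube2c, the ubiquitin-conjugating enzyme of that complex, overlaps Tnnc2 on the opposite strand over 592 bases.

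Of the 9 genes of the centromere, spindle and cytokinesis, 5 were higher in T0 than N0 (Cenpe, Cenpf, Kif11, Tpx2 and Nusap1), Kif23 was lower, and Cenpa, Kif20a and Birc5 were not called. In that comparison 8.42% of all genes were higher and 12.0% lower. Cenpa, the histone H3 variant that marks centromeres, had counts of 323, 383 and 392 in N0 and 339, 289.7 and 352 in T0, which overlapped (−0.16 ± 0.14, adjusted p = 0.464). After Ag they were 69.5, 43.5 and 56.1 in NAg and 123, 105 and 161 in TAg. Ag lowered Cenpa more than any other of the 40 genes in naive cells (−2.70 ± 0.17, adjusted p = 2.45e-12), and less in tolerized cells (−1.33 ± 0.15, adjusted p = 9.28e-08). The difference in response, 1.37 ± 0.23, adjusted p = 0.000175, was the largest of the 40 for Ag. PI moved it the other way in naive cells, to 573, 461 and 604 in NPI (0.58 ± 0.14, adjusted p = 0.00102), and TPI had 322, 405 and 375.

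Kif23, a motor of the central spindle, was the 1 gene called lower in T0 than N0. Its counts were 231, 250.5 and 152 in N0 and 145, 169 and 139 in T0, and the groups overlapped (−0.48 ± 0.15, adjusted p = 0.0234, a call lost without T0 1, T0 3, N0 1 or N0 2 at an adjusted p of 0.0611 to 0.147). With Ag the counts were 75.5, 85.8 and 92.4 in NAg and 91.4, 69.2 and 84.0 in TAg. After PI they were 316, 345 and 346 in NPI and 318, 306 and 268 in TPI. Kif23 thus fell after Ag and rose after PI in both cell states. The log2 fold change was −1.32 ± 0.16 and −0.89 ± 0.16 after Ag, and 0.67 ± 0.14 and 0.97 ± 0.15 after PI, in naive and tolerized cells in that order, with adjusted p-values from 8.76e-08 to 0.000259. Without N0 3 the value in NPI against N0 was 0.44 (adjusted p = 0.00567).

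Tpx2, which activates Aurora A at the spindle, had counts of 67.4, 14.6 and 27.8 in N0 and 8.32, 12.1 and 13.6 in NPI. In T0 it had 84.0, 91.9 and 81.5 and in TPI 23.4, 21.9 and 27.6. The PI libraries lay wholly below the resting ones in both states (−1.67 ± 0.43, adjusted p = 0.00202 in naive cells, and −1.80 ± 0.35, adjusted p = 0.000128 in tolerized cells), so Tpx2 fell in naive cells where Aurka rose. Without N0 1 the naive value was −0.94 (adjusted p = 0.0321). With Ag the counts were 45.5, 27.0 and 35.2 in NAg and 53.9, 66.8 and 95.3 in TAg. Nusap1, a microtubule-bundling protein, had counts of 77.0, 60.1 and 59.5 in T0 and 29.1, 25.2 and 31.9 in TPI (−1.17 ± 0.33, adjusted p = 0.00352). In N0 it had 49.5, 14.6 and 23.8 and in NPI 15.6, 16.5 and 12.7 (−0.98 ± 0.40, adjusted p = 0.0375, a call lost without NPI 1, NPI 2, NPI 3 or N0 1 at an adjusted p of 0.0595 to 0.374). With Ag the counts were 39.5, 20 and 26.4 in NAg and 59.5, 33.4 and 80.9 in TAg. Its exons overlap those of Oip5 on the opposite strand over 172 bases. Kif20a, the motor that carries Aurora B to the midzone, had 70.8, 53.9 and 55.6 in T0 and 20.2, 7.68 and 14.5 in TPI, the lowest estimate of the 40 genes in that comparison (−2.04 ± 0.40, adjusted p = 0.000126). In naive cells it had 48.5, 17.8 and 38.7 in N0 and 17.7, 24.2 and 17.8 in NPI. With Ag it had 42.0, 11.8 and 20.9 in NAg and 46.2, 40.5 and 74.8 in TAg (1.13 ± 0.39, adjusted p = 0.0284, a call lost without TAg 3, NAg 2 or NAg 3 at an adjusted p of 0.102 to 0.156), and the latter value was 1.72 without NAg 1. Its exons overlap those of Cdc23 on the opposite strand over 1259 bases.

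Cenpf, a large kinetochore protein, was higher in T0 than N0 (1.01 ± 0.23, adjusted p = 0.00251) and lower in TPI than T0 (−1.51 ± 0.23, adjusted p = 3.15e-06). Cenpe, the kinetochore motor, was also lower in TPI than T0 (−1.16 ± 0.28, adjusted p = 0.00105). Kif11, the motor that separates the spindle poles, was higher in tolerized cells under all 3 conditions, with means of 196 ± 12.6 in T0 and 89.1 ± 42.3 in N0 (1.13 ± 0.22, adjusted p = 0.00124). Its log2 fold change after Ag was 0.66 ± 0.22, adjusted p = 0.0221, a call lost without TAg 3, NAg 2 or NAg 3 at an adjusted p of 0.0579 to 0.128, and after PI 0.75 ± 0.22, adjusted p = 0.0111, a call lost without NPI 1 at an adjusted p of 0.0609. Birc5 (survivin), a partner of Aurora B, was called in 1 comparison, lower in TPI than T0 (−0.81 ± 0.24, adjusted p = 0.00483).

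Wider lists of the same pathways were described in the same way. Of 57 other mitotic genes, 28 were higher and 0 lower in T0 than N0, where 8.42% of all genes were higher and 12.0% lower, with a median log2 fold change of 0.87. In TAg against NAg 31 were higher and 1 lower, where 20.9% and 18.5% of all genes were, with a median of 0.91. Racgap1, a partner of Kif23 at the central spindle, had a mean of 411 ± 32.6 in T0 and 141 ± 64.1 in N0 (1.54 ± 0.21, adjusted p = 6.63e-05). In TPI against T0, 39 were lower and 5 higher, where 36.3% and 32.0% of all genes were, with a median of −0.79. The exception Cks2, a subunit of CDK complexes, rose from 68.0 ± 11.3 in T0 to 330 ± 14.2 in TPI (2.28 ± 0.20, adjusted p = 2.35e-09). For 55 other DNA replication genes the counts were 11 higher and 1 lower in T0 than N0, with a median of 0.17. After Ag 28 were higher and 4 lower in TAg than NAg, with a median of 0.57, and in TPI against T0 7 were higher and 31 lower, with a median of −0.43. Ung, the uracil glycosylase, had the largest change of those named, from 91.7 ± 19.3 in N0 to 992 ± 100.3 in NAg (3.43 ± 0.13, adjusted p = 3.2e-17). The response to PI was lower in tolerized cells for 17 of these 55 genes and 10 of the 57 mitotic genes and higher for 0, where 7.52% of all genes were lower and 12.7% higher.

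The 14 genes of pocket proteins, other E2F factors and the MuvB core, which hold cell cycle genes silent in resting cells or open them, were called after both stimuli. In NAg against N0 7 were higher and 6 lower, where 32.1% and 33.4% of all genes were, and in TAg against T0 7 were higher and 5 lower, where 29.9% and 29.8% were. In NPI against N0 2 were higher and 9 lower, where 28.6% and 32.7% of all genes were, and in TPI against T0 5 were higher and 8 lower, where 32.0% and 36.3% were. Tfdp1, the dimer partner of E2F factors, rose from 427 ± 25.1 in N0 to 1721 ± 120.4 in NAg (2.01 ± 0.07, adjusted p = 1.77e-17) and from 549.8 ± 34.4 in T0 to 1725 ± 4.31 in TAg (1.65 ± 0.07, adjusted p = 8.36e-16). Rbl1, the pocket protein p107, fell from 1177 ± 60.5 in N0 to 327 ± 36.0 in NAg (−1.85 ± 0.09, adjusted p = 1.26e-15). At rest 2 of the 14 were higher in T0 and 1 lower, close to the shares of all genes (8.42% and 12.0%).

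Among all other genes, those most like the mean of the 40 over the 18 libraries were E2f8 (Pearson r = 0.955), a repressor of the E2F family, and the histone genes Hist1h1b (0.954), Hist1h2bm (0.951), Hist1h4f (0.945), Hist1h2ab (0.942) and Hist1h2bb (0.938). The other 4 of the closest 10 were 5730590G19Rik (0.945), Uhrf1 (0.935), Casc5 (0.924) and Sept8 (0.924). Within the 40 genes r with this mean ran from 0.968 for Aurkb to −0.362 for Pcna, and it was below 0 for Mcm4, Tyms, Kif23, Cdt1 and Pcna. A gene within the set is part of the mean it is compared with, and histone messages that lack a poly(A) tail were kept by the rRNA depletion. These values are a description over libraries that share their depth and their mix of cells.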

How the data were processed

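RNA was measured by paired-end sequencing after rRNA depletion in 18 libraries, 3 for each of 6 groups taken from the sample labels. The deposited values are raw counts of reads per Ensembl gene, which the authors made with TopHat2 2.1.1 on mm9 and HTSeq 0.9.1. The strand setting of the counting is not given in the sources used here. The submitters' processing notes also name DESeq2 1.18 and edgeR 3.24. All other values were computed from these counts.

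Genes with a mean normalized count of at least 3 in 1 group (17240) were fitted together in edgeR 4.0.16 (R 4.3.3, TMM factors, robust quasi-likelihood test), with 6 group means and contrasts between them, and p-values were adjusted by the Benjamini-Hochberg method. Library totals set the precision and ran from 10758571 to 24119489. The fit was tested on simulated data. In T0 against N0, it recovered 58 of 100 genes changed by 1 on the log2 scale and 79 of 100 changed by 2, with 10 false calls.

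The 40 genes, their roles and all other lists were chosen with earlier results of these data known. Values in every library were given for Mki67, Top2a, the gene of each other role with the highest mean count, and, in each comparison, the 3 genes farthest above and below the median of the 40. Further values were added in the text. From the wider lists, genes were named among the 3 with the smallest adjusted p, and the 10 genes most correlated with the mean of the 40 were named. Gene names, positions and overlaps came from GENCODE M1 (NCBIM37). Alternatives were DESeq2 1.42.0, its size factors, no filter, the study's limits (fold change of 2, mean count of 50), only the groups compared, the replicate number as a block, sex, marker scores, and each library left out. Libraries with more than 1000 reads of Y-linked genes were taken as male.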

Additional observations from a re-analysis of the deposited data

Results flagged for a closer look

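In 14 cases the response to a stimulus differed between tolerized and naive cells by a test of the difference itself, given here as the log2 fold change in tolerized cells minus that in naive cells. After Ag the difference was 0.73 for E2f2, −0.98 for E2f1 and 1.37 for Cenpa. After PI it was −0.44 for Mcm2, −0.49 for Mcm5, −0.51 for Mcm7 and 0.60 for Mcm6, so that genes of 1 helicase moved apart. For the other genes of replication and its control it was −1.50 for Cdc6 and −0.92 for E2f1. For the mitotic genes it was −1.92 for Aurka, −1.84 for Ccnb1, −1.23 for Plk1, −1.02 for Cdc20 and −0.98 for Cenpf. E2f1 is the 1 gene of the 40 with a difference after both stimuli. Both differences contain the same resting gap of T0 against N0 (0.93 for E2f1), so they are not separate results. E2f1 was not called in TAg against NAg or in TPI against NPI. Every other difference likewise contains the resting gap of its gene. Ccnb1, Cdc20 and Cenpf were called higher in T0 than N0 and were not called in TPI against NPI. Mcm2, Mcm5, Mcm7, Mcm6, Plk1 and Aurka were called in TPI against NPI. The values of E2f1 (both stimuli), Cdc6, Ccnb1, Cdc20 and Cenpf did not pass the test in at least 1 fit without a library. With sex as a covariate, 1 difference in Ag response (E2f1) and 5 in PI response lost their call. With marker scores 4 in PI response did. N0 came from females and NPI from males, so the PI response of naive cells within these differences cannot be told apart from sex.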

How the results depend on the processing

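Estimates of single genes, called or not, mostly kept their side of the threshold. Of the estimates for 40 genes in 9 comparisons, 352 did so with DESeq2, 354 with its size factors, 356 without the filter, 326 with sex, 323 in fits of only the groups compared and 255 with marker scores. Most of these estimates were not called in the main fit. With marker scores all calls in T0 against N0 were lost. In TAg against NAg 24 calls were lost, where the main fit had 24 genes higher and 2 lower. In TPI against T0 14 calls were lost and 7 more estimates changed sign. With the study's limits the counts higher and lower were 11 and 0 in T0 against N0, 12 and 0 in TAg against NAg, 1 and 1 in TPI against NPI, 2 and 3 in NAg against N0, 1 and 2 in TAg against T0, 4 and 0 in NPI against N0, 2 and 13 in TPI against T0, 1 and 0 for the difference in Ag response, and 0 and 5 for that in PI response. With marker scores 0 and 0 were called in T0 against N0, 2 and 0 in TAg against NAg, 2 and 3 in TPI against NPI, and 3 and 5 in TPI against T0, and those lower numbered 13 in NAg against N0, 2 in NPI against N0, 2 for the difference in Ag response and 6 for that in PI response. With sex 12 and 0 were called in T0 against N0, and 0 and 5 were lower for the differences in Ag and PI response. In fits of only the groups compared, 0 were lower in T0 against N0, 3 in NPI against N0, 0 for the difference in Ag response and 17 for that in PI response. For the difference in Ag response 2 were lower with DESeq2 and 2 with its size factors. Of all genes, those lower with marker scores numbered 3485 in NPI against N0 and 856 for the difference in Ag response. With sex 1195 of all genes were lower for that difference. In fits of only the groups compared, 962 were lower in T0 against N0 and 5399 in NPI against N0. Such fits gave 1053 and 2070 lower for the differences in Ag and PI response. For the Ag difference 1421 of all genes were lower with DESeq2 and 1388 with its size factors. The causes of these changes were not tested.

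Among estimates called in the main fit or in the fit with marker scores, 19 changed sign with these scores. In T0 against N0 they were Rrm2 −0.83, Aurkb −0.20, Tk1 −0.32, Nusap1 −0.57, Tpx2 −0.31, Ccna2 −0.03, Bub1b −0.09, Ccnb1 −1.53 and Cenpe −0.34. In TPI against T0 they were Birc5 0.37, Aurkb 0.23, Tk1 0.36, Nusap1 0.26, Mki67 0.18, Ccnb2 0.52 and Ccnb1 0.88. The others were Tk1 −0.29 in TPI against NPI, and Ccnb2 0.16 and Ccnb1 1.69 in NPI against N0. Signs of genes called in neither fit changed as well and are not listed. Over all 40 genes, estimates above 0 in T0 against N0 numbered 18 with marker scores and 34 in the main fit. These numbers were 21 and 11 in TPI against T0, and 30 and 17 in NPI against N0. The median standard error was 0.64 in place of 0.24 in T0 against N0, and the cause was not tested.

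With each library left out in turn, the counts higher ranged from 13 to 24 in T0 against N0, 13 to 24 in TAg against NAg, 2 to 6 in TPI against NPI, 7 to 9 in NAg against N0, 5 to 7 in TAg against T0, 11 to 13 in NPI against N0, 5 to 7 in TPI against T0, 2 to 3 for the difference in Ag response and 1 to 2 for that in PI response. Those lower ranged, in the same order, from 0 to 1, 1 to 2, 6 to 7, 6 to 10, 3 to 9, 3 to 8, 20 to 22, 0 to 2 and 6 to 17. Counts moved by over 1.5 times without the libraries named beside them in the report, N0 1, N0 2, NAg 2, TAg 3 and TPI 3 among them.

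Replicate numbers did not pair the libraries, since 2 of 45 same-numbered pairs had deviations correlated above 0.1 (median −0.02) and 3 of 18 libraries correlated best with their own number. With the replicate block 2 genes were lower for the difference in Ag response, where 1167 of all genes were. In that model 350 estimates kept their side of the threshold. Genes such as Gins2, Ube2c and Bub1 rest on few reads, where smaller changes were not detectable at this depth.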
